A study of Homo sapiens with 2 samples.

Results

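Complex I, the NADH:ubiquinone oxidoreductase of the inner mitochondrial membrane, was described here in HT-29 cells given MYC siRNA, gene by gene, as its structural subunits and the factors that assemble them. HT-29 is a human colorectal adenocarcinoma line. Members were the probe sets that name 1 gene alone in the platform annotation, where that gene carries a symbol of the NDUFA, NDUFB, NDUFC, NDUFS, NDUFV or NDUFAF series or is NDUFAB1, ACAD9, ECSIT, TIMMDC1 or FOXRED1. This rule found 83 probe sets of 45 genes, out of 54675 probe sets and 19775 genes on the array, and the genes were 33 subunits and 12 assembly factors. Some subunits were not analysed here, and neither were NDUFA4 and NDUFA4L2, of which NDUFA4 belongs to complex IV by function.

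The series held 2 arrays, called MYC siRNA and control siRNA, where the former received an siRNA pool that targets MYC and the latter a non-targeting pool. Each siRNA was used at 20 nM by reverse transfection for 24 h, and cells were used after 48 h. The treatment field of the control sample reads None, whereas its protocol names the non-targeting pool. With 1 array per condition no difference below has a replicate check, and no test was made. The MYC transcript read 1963 under the non-targeting pool and 1639.9 under the MYC pool, a log2 ratio of -0.26 (-0.16 after loess, a correction for the trend of ratio with signal).

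Complex I takes electrons from NADH and passes them through a flavin and a chain of iron-sulfur clusters to ubiquinone, and it couples this to proton pumping across the inner membrane. It is shaped like an L, with a matrix arm that holds the redox centres and a membrane arm that holds the pumps. The subunits are made partly from mitochondrial DNA and partly from nuclear genes, and core subunits do the chemistry while supernumerary subunits surround them. Assembly factors build modules of the complex and leave before it is finished, and a few of them also have other roles.

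Signals were values of the MAS5 algorithm on a linear scale, scaled to a mean of 100 per array. A signal under 50 was set to 50, the log2 ratio (MYC pool over non-targeting pool) was computed, and each gene took its brightest probe set. A gene at least 2-fold higher was called an UP DEG and a gene at least 2-fold lower a DOWN DEG, which is the threshold in the methods of the study. All 45 genes were above 50 in both arrays, so none of their folds is only a bound. Of the 83 probe sets, 56 were above 50 in at least 1 array. Probe sets of the same gene differed in log2 ratio by an SD of 0.28 in dim genes, 0.23 in middle genes and 0.17 in bright genes. This SD is the only error measured here, and differences between cultures are not in it.

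**Figure D1:**
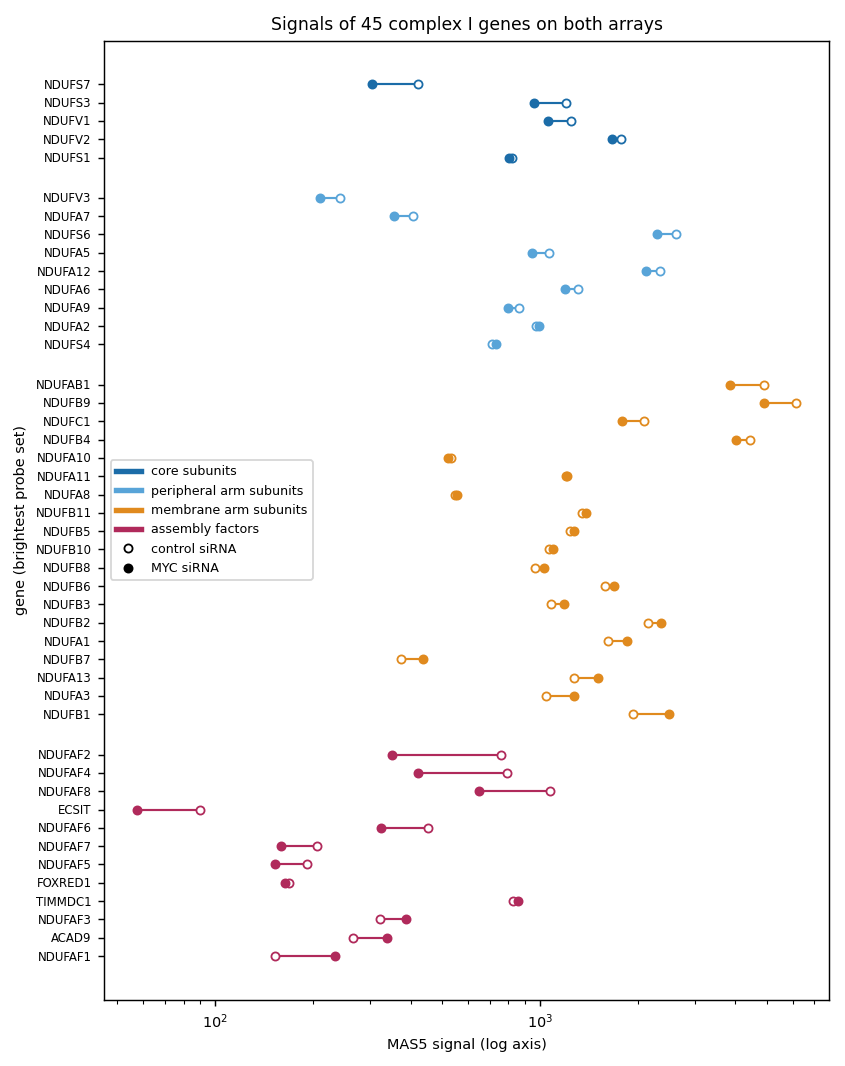
MAS5 signal (x axis, log scale) of each complex I gene (rows, brightest probe set) with control siRNA (open circles) and MYC siRNA (filled circles), joined by a line and coloured by role. The longest lines belong to assembly factors, such as NDUFAF2 from 758 to 350.4, while most subunits have both circles close together.

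Assembly factors and subunits were first set side by side. Of 12 assembly factors, 8 were lower with MYC siRNA and 4 higher, with a median log2 ratio of -0.35 and a range of -1.11 to 0.61. Of 33 subunits, 18 were lower and 15 higher, with a median of -0.03 and a range of -0.47 to 0.37. Among all 8917 genes above 50, 46.5% were lower and the median was 0.03. The SD between genes was 0.53 in assembly factors, 0.20 in subunits and 0.44 in all genes. The median of the assembly factors lay 0.32 below that of the subunits on the log2 scale.

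At least 1.5-fold lower were 4 assembly factors and none of the subunits, against a background of 5.72% of all genes above 50. At least 1.5-fold higher was 1 assembly factor, NDUFAF1, against 10.4% of all genes. NDUFAF2 was the only DOWN DEG among the 45 genes, where the background was 0.695%, and none was an UP DEG, where it was 2.73%. The log2 ratio exceeded the probe set SD of its brightness class in 10 of 12 assembly factors and in 13 of 33 subunits, and it did so in 58.3% of all genes. It exceeded 2 such SDs in 6 assembly factors and 3 subunits, and in 28.6% of all genes. The background covers dim genes too, and no test of a difference from it was made.

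**Figure D2:**
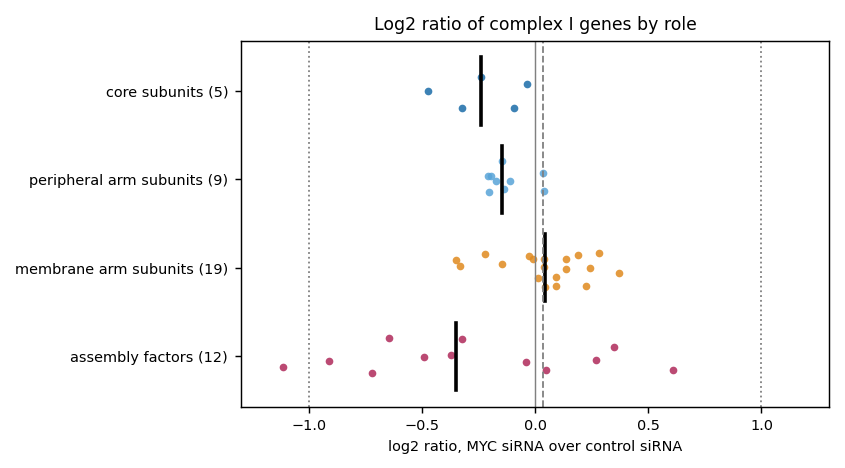
Log2 ratio of the MYC array to the control array (x axis) of each complex I gene (points, spread vertically at random) by role, with the number of genes in brackets. Black bars are medians (-0.24, -0.15, 0.04 and -0.35 from top to bottom), the dashed line is the median of all genes above 50 (0.03), and the dotted lines mark 2-fold.

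Among the factors for the matrix arm, NDUFAF2, which stays on the nearly finished complex where the NADH-binding module joins, had the lowest ratio of all members. It read 758 under the non-targeting pool and 350.4 under the MYC pool, which is 2.16-fold lower (log2 ratio -1.11). A share of 0.370% of all genes above 50 had a lower ratio, and NDUFAF2 has only 1 probe set, which can bind several transcripts. NDUFAF4, an early factor for the module that reduces ubiquinone, read 794 under the non-targeting pool and 423 under the MYC pool, which is 1.88-fold lower. NDUFAF3, which binds NDUFAF4 and acts beside it, read 321 under the non-targeting pool and 387 under the MYC pool, a log2 ratio of 0.27. The partners thus lay on opposite sides of equal expression, with log2 ratios of -0.91 and 0.27.

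NDUFAF5 hydroxylates the core subunit NDUFS7, and NDUFAF8 stabilizes NDUFAF5. NDUFAF8 read 1074 under the non-targeting pool and 651 under the MYC pool, which is 1.65-fold lower. NDUFAF5 read 192 under the non-targeting pool and 153 under the MYC pool, a log2 ratio of -0.32, and another probe set was 1.59-fold lower at signals of 187 and 118. Both members of this pair were therefore lower, as was their substrate NDUFS7. NDUFAF7, a methyltransferase of complex I assembly, read 206 under the non-targeting pool and 159 under the MYC pool (log2 ratio -0.37), and its 3 probe sets above 50 were all lower, by -0.27 to -0.37. NDUFAF6, a factor that acts early in the biogenesis of complex I, read 454 under the non-targeting pool and 323 under the MYC pool, a log2 ratio of -0.49.

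Factors for the membrane arm did not lie on one side. NDUFAF1, ECSIT, ACAD9 and TIMMDC1 belong to or bind the assembly complex that builds the membrane arm. NDUFAF1 read 153 under the non-targeting pool and 233 under the MYC pool, which is 1.53-fold higher, the highest ratio of all members. ACAD9, which also is an acyl-CoA dehydrogenase, read 266 under the non-targeting pool and 338 under the MYC pool (log2 ratio 0.35). ECSIT, which has a further role in innate immune signalling, read 90.1 under the non-targeting pool and 57.7 under the MYC pool, which is 1.56-fold lower. It is the dimmest member, and with signals under 100 set to 100 its log2 ratio is 0. TIMMDC1 was nearly level, with signals of 829.6 and 858 (log2 ratio 0.05). FOXRED1, an oxidoreductase-like factor for later steps of the membrane arm, was nearly level too, with signals of 169 and 164 (log2 ratio -0.04).

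Of 10 further assembly genes that the membership rule leaves out (TMEM126A, TMEM126B, TMEM70, TMEM186, COA1, NUBPL, DMAC1, DMAC2, LYRM2 and AIFM1), 7 were lower and 3 higher, with a median of -0.30. NUBPL, which delivers iron-sulfur clusters to complex I, was the lowest, with signals of 123 and 80.2 (log2 ratio -0.62), and TMEM186 followed at -0.41. The highest were LYRM2 at 0.05 and DMAC2 at 0.01. With these genes added, the median of the assembly factors was -0.32.

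The subunits were then described by arm. Of 14 subunits of the matrix arm, 12 were lower and 2 higher, with a median log2 ratio of -0.16, while of 19 subunits of the membrane arm, 6 were lower and 13 higher, with a median of 0.04. The difference between these medians was 0.20, and the ranges overlapped (-0.47 to 0.04 and -0.35 to 0.37). All of these are small differences between single arrays. Core subunits are in the matrix arm group only, and subunits encoded by mitochondrial DNA are not members of either group.

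All 5 core subunits were lower, with a median of -0.24. NDUFS7, which holds the last iron-sulfur cluster before ubiquinone, read 422 under the non-targeting pool and 304 under the MYC pool, which is 1.39-fold lower and the lowest of all subunits. NDUFS3 read 1200 under the non-targeting pool and 960.2 under the MYC pool (log2 ratio -0.32). NDUFV1, which binds NADH and the flavin, read 1251 under the non-targeting pool and 1061 under the MYC pool (log2 ratio -0.24). NDUFV2 and NDUFS1, which carry further iron-sulfur clusters, were at -0.09 and -0.03, within the SD between probe sets. For NDUFS1, probe sets of 111 and 60.0 with control siRNA were slightly higher with MYC siRNA, at 0.15 and 0.06.

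The 9 supernumerary subunits of the peripheral arm, the part in the matrix, lay close together, from -0.21 to 0.04 with a median of -0.15, and 7 of them were lower. NDUFV3 (243 and 210.1) was at -0.21 and NDUFA7 (408 and 355) at -0.20. NDUFS6 (2621 and 2293) was at -0.19 and NDUFA5 (1069 and 947) at -0.17. NDUFA12 was at -0.15, NDUFA6 at -0.14 and NDUFA9 at -0.11, while NDUFA2 and NDUFS4 were at 0.03 and 0.04. Only NDUFA7 and NDUFS6 exceeded the SD between probe sets, and a second, dimmer probe set of NDUFA6 (142 and 169.6) was on the other side, at 0.25.

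In the membrane arm the lowest were NDUFAB1 and NDUFB9. NDUFAB1, the mitochondrial acyl carrier protein, is present in both arms of the complex and serves lipoic acid synthesis as well. It read 4897 under the non-targeting pool and 3843 under the MYC pool, which is 1.27-fold lower. NDUFB9 (6166 and 4892) was at -0.33, NDUFC1 (2087 and 1789) at -0.22 and NDUFB4 (4451 and 4023) at -0.15. Of these 4, all but NDUFB4 exceeded the SD between probe sets.

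The highest subunits were NDUFB1, NDUFA3, NDUFA13, NDUFB7 and NDUFA1, all supernumerary subunits of the membrane arm. NDUFB1 read 1941 under the non-targeting pool and 2505 under the MYC pool, which is 1.29-fold higher (log2 ratio 0.37). NDUFA3 (1047 and 1273) was at 0.28 and NDUFA13, first known as a protein of cell death pathways, at 0.24 (1277 and 1511). NDUFB7 (374 and 437) was at 0.22 and NDUFA1 (1621 and 1851) at 0.19. The remaining membrane arm genes, NDUFB2, NDUFB3, NDUFB6, NDUFB8, NDUFB10, NDUFB5, NDUFB11, NDUFA8, NDUFA11 and NDUFA10, lay between -0.03 and 0.14, all within the SD between probe sets.

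Of the 45 genes, 9 had several probe sets above 50, and in 5 of these the probe sets differed in sign (NDUFA6, NDUFA11, NDUFB8, NDUFB10 and NDUFS1). All 5 are subunits near equal expression, so the direction given for them is that of the brightest probe set. NDUFA11 was at -0.01 in the brightest probe set and at 0.23 in another.

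The ratio depended on signal across all genes, which touches each value above. In 5 equal groups of genes by signal, the median log2 ratio ran from 0.15 among the dimmest to -0.10 among the brightest. Of the 33 subunits 26 were in the brightest group, whereas the 12 assembly factors were spread over all groups, with 2 in the brightest. After loess on mean signal, the medians were -0.38 for assembly factors and 0.02 for subunits, a difference of 0.40. By arm they were -0.16 for core, -0.05 for peripheral arm and 0.12 for membrane arm subunits, and 3 of 5, 7 of 9 and 3 of 19 were lower. NDUFV2 and NDUFS1 were then at 0.01 and 0.02, so the count of 5 lower core subunits did not hold with this correction. It did not hold with quantile normalization either, nor for NDUFS1 with either mean over probe sets (0.04) or without probe sets that can bind several transcripts (0.15).

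**Figure D3:**
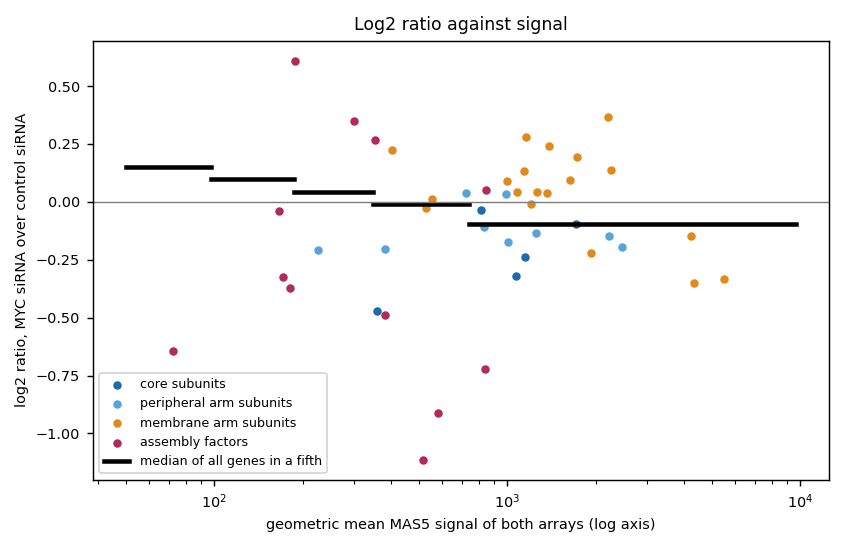
Log2 ratio of the MYC array to the control array (y axis) against the geometric mean signal of both arrays (x axis, log scale) for each complex I gene, coloured by role. Black bars are medians of all genes above 50 in 5 equal groups by signal, from 0.15 in the dimmest to -0.10 in the brightest, and most membrane arm subunits lie above the bar of the brightest group.

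The order of the groups stood under the other processing settings, apart from 1. A floor under 50, no filter and median centring could not change this order. They left the member values as they were or shifted all of them alike. Assembly factors had the lowest median and membrane arm subunits the highest in each setting but a floor of 100. With that floor the assembly factors had a median of -0.18, between core (-0.24) and peripheral arm subunits (-0.15). The mean linear ratio over all probe sets of a gene, which the study used for its networks, gave medians of -0.21 for assembly factors and 0.01 for subunits. This mean counts probe sets under 50 in both arrays as unchanged.

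**Figure D4:**
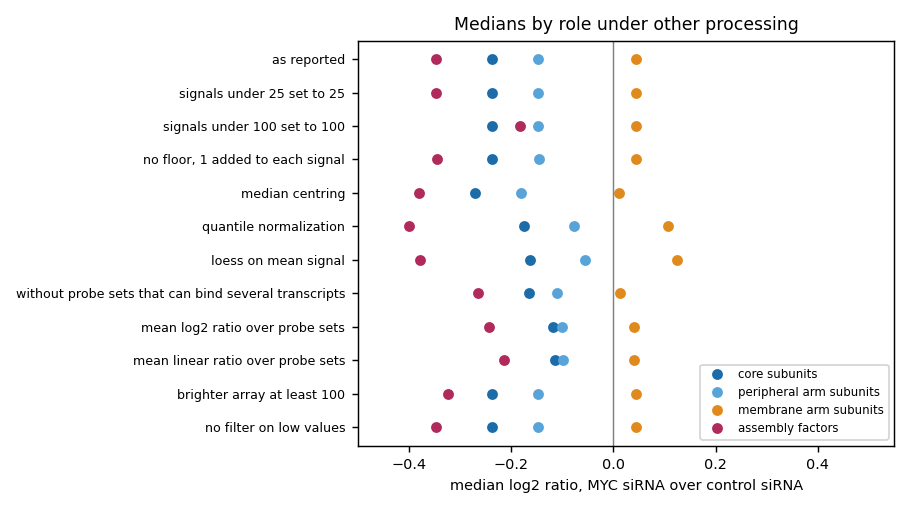
Median log2 ratio of the MYC array to the control array (x axis) of core subunits, peripheral arm subunits, membrane arm subunits and assembly factors under each processing setting (rows). The membrane arm subunits lie right of 0 in every row (0.01 to 0.12) and the other groups left of 0.

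The other respiratory complexes were set beside complex I. Of 69 genes of complexes II to V and their assembly, 50 were lower and 19 higher, with a median of -0.15. Among them were 36 subunits, of which 26 were lower with a median of -0.11, beside 18 of 33 complex I subunits with a median of -0.03. Complex III had a median of -0.11 in 12 genes, complex IV of -0.14 in 30 and complex V of -0.18 in 20, while the 7 genes of complex II had a median of 0.23. After loess the subunits of complexes II to V had a median of 0.03 with 16 of 36 lower, and those of complex I had 0.02 with 13 of 33 lower, so no gap was left between them. The lowest of these genes with a signal of at least 100 were BCS1L, an assembly factor of complex III, at -0.89 (288 and 156) and COA7, of complex IV assembly, at -0.67. The highest were COA3 at 0.37 and PET100 at 0.35, both of complex IV assembly. No test of these differences is possible with 1 array per condition.

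Genes that supply complex I with cofactors or act on its expression were described in the same way. Of 12 iron-sulfur cluster genes, 8 were lower (median -0.14), and ISCA1, of the late steps of cluster assembly, was 2.02-fold lower, from a control signal of 709, whereas ISCA2, its partner, was 1.57-fold higher, from 166 to 259. Of 14 genes of coenzyme Q synthesis and supercomplexes, 9 were lower and 5 higher (median -0.08). COQ8A was the lowest, at -0.75, and PDSS2 and COQ5 were the highest, at 0.43 and 0.42. Of 8 regulators above 50, 7 were lower (median -0.22). PPRC1, a coactivator of the PGC-1 family, was at -0.79 (247 and 143) and TFAM, which packs mitochondrial DNA, at -0.59 (1216 and 807). ESRRA was at -0.24. GABPB1 (-0.19), YY1 (-0.07), GABPA (-0.07) and NRF1 (0.08) lay within the SD between probe sets. PPARGC1B read 71.5 and 20.9, and since the latter was set to 50 its log2 ratio of -0.52 is fixed by the floor. PPARGC1A was not above 50 in either array.

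Promoter sequences are shown for 2 reasons: NDUFAF2 and NDUFAF4 had the lowest ratios, and CACGTG is the E-box letters known as a binding motif of MYC with MAX. RefSeq windows from 250 bases before to 50 bases after a start (GRCh38.p14) were at hand for 41 of the 45 genes, in 54 windows. The stretch between the start of NDUFAF2 and the start of its neighbour ERCC8 (chr5:60945071-60945204, plus strand) and that between NDUFAF4 and KLHL32 (chr6:96897892-96898082, minus strand) are printed 5′ to 3′, with CCAAT or its reverse complement ATTGG, and CCGGAAG, an ETS-family motif, in capitals. Neither window of 300 bases held CACGTG.
NDUFAF2: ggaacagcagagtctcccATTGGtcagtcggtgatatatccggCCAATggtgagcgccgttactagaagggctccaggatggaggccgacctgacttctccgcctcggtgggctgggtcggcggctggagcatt
NDUFAF4: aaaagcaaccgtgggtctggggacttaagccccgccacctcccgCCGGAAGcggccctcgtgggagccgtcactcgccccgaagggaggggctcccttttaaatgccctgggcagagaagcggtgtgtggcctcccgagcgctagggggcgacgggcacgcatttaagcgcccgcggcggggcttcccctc

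CACGTG was found in the windows of 5 of the 41 genes (12.2%), against 13.6% of the genes above 50 with a window and 8.77% of all genes with one. The 5 genes are shown with 12 bases on either side of the motif, which is in capitals, on the gene's own strand. They are ACAD9 (chr3:128879483-128879512), NDUFA11 (chr19:5903905-5903934), NDUFA7 (chr19:8321478-8321507), NDUFAF5 (chr20:13784890-13784919) and NDUFS7 (chr19:1383708-1383737).
ACAD9: gccagccaggtgCACGTGactaaggccttg
NDUFA11: ggcctggggatgCACGTGctactctcttcc
NDUFA7: gcggagaggagtCACGTGcttcggggagag
NDUFAF5: cctaccaagcctCACGTGgggctcacaccc
NDUFS7: acccgcggccccCACGTGcgcactccgatg

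The motif began between 120 and 187 bases before the start in these genes, and their log2 ratios lay on both sides of 0. NDUFS7 was at -0.47, NDUFAF5 at -0.32, NDUFA7 at -0.20, NDUFA11 at -0.01 and ACAD9 at 0.35. CCGGAAG or its reverse complement was in 8 of the 41 genes (19.5%), against 25.3% of genes above 50, and CCAAT or its reverse complement in 12 (29.3%), against 43.8%. The palindromic motif known for the factor NRF1 was in NDUFA8, NDUFAF5 and NDUFB4 (7.32%), against 3.03% of genes above 50. Of the 4 motifs searched, only this one had a larger share in the 41 members than in genes above 50. By role, CACGTG was in 20% of 10 assembly factors and 9.68% of 31 subunits. CCGGAAG was in 30% and 16.1%, CCAAT in 50% and 22.6%, and the NRF1 motif in 10% and 6.45%. All 4 shares in assembly factors were thus above those of genes above 50, on 1 to 5 genes each. None of these motifs holds another. A match to letters is a description and no evidence of binding.

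Some of these genes share a start region with a neighbour on the opposite strand. With a start less than 1000 bases upstream, or overlapping by at most 300 bases, 12 of the 45 genes had such a head-to-head neighbour above 50, named after their values were seen. The share of all genes with such a neighbour is not given here. Member and neighbour lay on the same side of equal expression in 9 of 12 pairs, and in 310 of 549 such pairs over all genes (56.5%). This held in 5 of 5 assembly factors and in 4 of 7 subunits. NDUFAF5 lies 109 bases from ESF1, a nucleolar factor of ribosome making, which had signals of 591 and 390.3 and was 1.51-fold lower. NDUFAF7 lies 62 bases from CEBPZ, also of ribosome making, which was 1.24-fold lower (1184 and 956). NDUFAF2 lies 135 bases from ERCC8, of transcription-coupled repair, which was 1.21-fold lower (118 and 97.7), far less than the 2.16-fold of NDUFAF2.

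TEPSIN beside NDUFAF8 read 64.7 and 48.4, and since the latter was set to 50 its log2 ratio of -0.37 is fixed by the floor. DALRD3 beside NDUFAF3 was at 0.31, the only neighbour of an assembly factor on the higher side, as NDUFAF3 was itself. Of the subunits, NDUFC1 lies 271 bases from NAA15, an N-terminal acetyltransferase subunit, which was 1.54-fold lower (968 and 630.0), while NDUFS3, NDUFA2 and NDUFB11 lay on the other side of 0 from their neighbours KBTBD4, IK and RBM10. These counts are of 1 pair of arrays and small, and shared regulation was not tested.

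**Figure D5:**
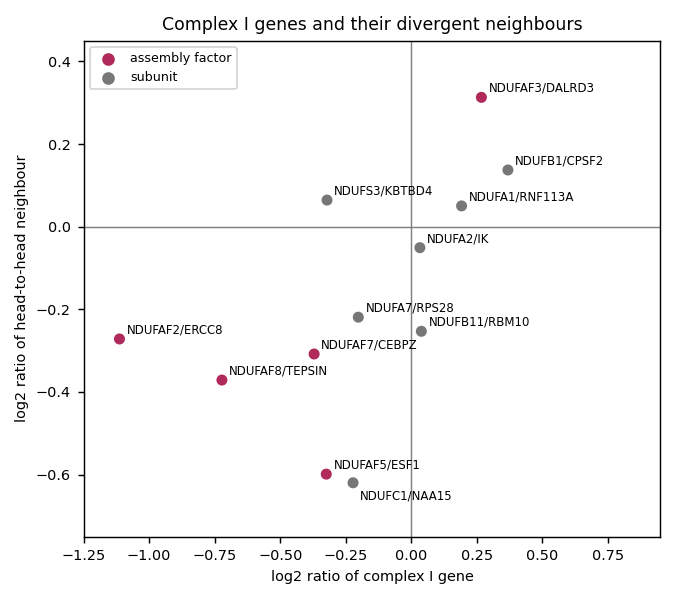
Log2 ratio of the MYC array to the control array of 12 complex I genes (x axis) and of the gene that starts head to head with each (y axis), with assembly factors in red and subunits in grey. All 5 assembly factors lie in the lower left or upper right quadrant, while 3 of 7 subunits do not.

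Over the whole arrays, 16074 probe sets were above 50 with control siRNA and 16571 with MYC siRNA, and the 3′ to 5′ ratios, control array first, were 1.16 and 1.14 with ACTB probes and 1.002 and 1.017 with GAPDH probes. Of 10 markers of colon epithelium, 8 were above 50 in both arrays, while CDX1 and CDX2 were not. Of 10 markers of other cells, COL1A1 alone was above 50, at 94.7 and 78.9. Of the 8 epithelial markers, 6 were higher with MYC siRNA (median log2 ratio 0.28), with LGALS4 at 0.79 and KRT19 at 0.60, while KRT18 and EPCAM were at -0.03 and -0.19. The summed signal of all 10 was 36336 on the control array and 42220.4 on the MYC array, that of the other-cell markers was 203 and 172, and the part of these shifts in the results was not tested. In bulk RNA, less RNA per cell of one kind and fewer such cells cannot be told apart.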

How the data were processed

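RNA of HT-29 cells was measured on 2 GeneChip Human Genome U133 Plus 2.0 arrays, 1 per group. The deposited values are intensities made by the authors as MAS5 signals with affy 1.40.0, scaled to a target level of 100. After leaving out 2% of probe sets at each end, the mean was 99.97 in both. Apart from this scaling to a common target, they carry no floor, logarithm or normalization between arrays. The number of arrays limits the precision.

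Of 54675 probe sets, 41097 name 1 gene, 1801 several, and 11777 are not listed in the annotation. Symbols were updated by gene identifier to RefSeq (GRCh38.p14), which held all 45 members; no build is given for the array. Signals under 50 were set to 50 and log2 ratios of MYC siRNA to control siRNA taken, with the brightest single-gene probe set per gene. No test is possible with 1 array per group. Subunits were divided into core, peripheral arm and membrane arm. Every member could be named, and of other lists the outermost genes with a signal of at least 100. The neighbours and the genes named from the iron-sulfur, coenzyme Q and marker lists were picked with their values in view. The same holds for the regulators other than PPRC1 and TFAM and for the complex V assembly genes. The members and lists were chosen with earlier results of these data known.

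Alternatives were floors of 25 and 100, no floor with 1 added, median centring, quantile normalization, loess (span 0.3), probe set choice and averages, a brighter array of at least 100, no filter, and other membership. The calculation was tested on simulated data. There, changes were put only into brighter genes and no trend of ratio with signal was built in, so changes in dimmer genes were not covered. Python 3.11.15, numpy 2.4.6, pandas 2.3.3, statsmodels 0.14.6 and matplotlib 3.10.9 were used.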

Additional observations from a re-analysis of the deposited data

How the results depend on the processing

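No paired analysis was possible because each group has 1 array. A median is given here where it moved by more than 0.1 (log2) and a count where it moved by more than 1.5 times. With signals under 100 set to 100, the median of assembly factors was -0.18 and its difference from subunits -0.15. Averaging all probe sets of a gene, as log2 or as linear ratios, gave an assembly factor median of -0.24 and -0.21 and a core median of -0.12 and -0.11, with 2 genes lower by at least 1.5-fold in each. Without probe sets that can bind several transcripts, 20 subunits and 6 assembly factors were left, of which 16 were lower, 2 by at least 1.5-fold, and 0 were DEGs, since the probe set of NDUFAF2 is among those removed. With a lower fold threshold 10 genes were counted as lower in place of 4, and 0 passed 3-fold. Settings for the medians by arm were added after seeing the data. Counting NDUFA4 and NDUFA4L2 as subunits gave no value, since neither was analysed here, and leaving out an array is not possible with 1 per group. Of 475 values of single genes under these settings, 461 moved by less than the SD between probe sets. The other 14, of 8 genes, moved by more. Many of the 461 could not move past this SD. The lower floor, no filter and the cut on the brighter array returned the main value of each member they kept. Median centring shifted every gene by the same 0.03, under the smallest SD of 0.17. The count of 461 therefore overstates how far the values were tested. No gene at least 1.5-fold apart changed sign. The median of all subunits, which is close to 0, was above 0 after loess (0.02), quantile normalization (0.01) and either mean over probe sets (0.01), and below 0 in the others. The causes of these shifts were not tested.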

Other observations

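Subunits of complex I encoded by mitochondrial DNA are not members of the rule, and probe sets name 3 of them alone. ND4 had log2 ratios of 0.01 and -0.06 in its probe sets (4930 and 5326 with control siRNA), ND2 was 1.27-fold lower (6459 and 5070), and ND6 was 1.69-fold lower at 105 and 61.9. ND4 thus lay near equal expression, while ND6 was lower at a signal close to the floor of 50. These genes were chosen after their values were seen.

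Subunits and assembly genes of complexes II to V were separated after the values were seen. The 36 subunits above 50 had a median log2 ratio of -0.11 (-0.59 to 0.30), with 26 lower, and the 30 assembly genes had a median of -0.19 (-0.89 to 0.74), with 22 lower. At least 1.5-fold lower were 1 subunit, ATP5MK, and 3 assembly genes. In complex III the medians were -0.04 for 7 subunits and -0.39 for 5 assembly genes, with BCS1L and LYRM7 (-0.61) the lowest. In complex IV they were -0.06 for 10 subunits and -0.19 for 19 assembly genes. In complex II they were 0.23 for 3 subunits and -0.005 for 4 assembly genes. In complex V they were -0.18 for 16 subunits and 0.27 for 2 assembly genes, which lay on opposite sides of 0. ATPAF1 was at -0.21 (378 and 328). TMEM242 was at 0.74, with signals of 54.8 and 91.7, close to the floor of 50 on the control array. After loess the medians over complexes II to V were 0.03 for subunits and -0.20 for assembly genes. No test of these differences was possible with 1 array per group.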
